A study of Mus musculus with 12 samples.

Results

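Transcripts of 10 genes that mark vascular smooth muscle cells and pericytes were examined in the left ventricle of 12 male C57BL/6 mice. The genes are Myh11, Tagln, Cnn1, Smtn, Lmod1, Mylk, Myocd, Rgs5, Pdgfrb and Cspg4. They were taken by symbol from the deposited tables (25319 genes with counts, 25258 with FPKM), each had a single row, and all 10 had enough reads to be among the 14965 genes tested. Mice underwent transverse aortic constriction (TAC), in which a clip around the aortic arch makes the ventricle pump against a raised pressure, or a sham operation without the clip. Surgery was at 8 weeks of age and hearts were taken at 12 weeks. Within each operation 3 mice had oral dantrolene, which blocks calcium release through ryanodine receptors, at 30 mg per kg per day during the 4 weeks and 3 were labelled control. What the control mice were given in its place is not stated in the labels. The 4 groups (sham control, TAC control, sham dantrolene and TAC dantrolene) hold 3 mice each with 1 library per mouse, and mice are numbered 1 to 3 within a group.

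Mural cells wrap the endothelial tube of blood vessels. Smooth muscle cells sheathe arteries and veins and set their calibre through a contractile apparatus of smooth muscle myosin and actin, which is switched on when myosin light chain kinase phosphorylates the myosin light chain. Pericytes sit on capillaries, and platelet-derived growth factor from the endothelium recruits them through its receptor beta. Many contractile genes of smooth muscle are transcribed under serum response factor (SRF), which binds CArG boxes in DNA, together with its coactivator myocardin. Myocardin is also present in cardiomyocytes, transgelin appears in activated fibroblasts, and PDGF receptor beta is found on some fibroblasts, so none of these genes reads a single cell type in bulk tissue. A higher or lower level in such tissue cannot be divided into more or fewer cells of a type and more or less RNA per cell.

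In TAC control against sham control, Rgs5, Cnn1, Mylk and Smtn were the members whose libraries did not overlap between the groups on the CPM scale (read counts scaled to library size, with TMM factors). Over all genes, 7.54% were higher and 9.82% lower without overlap, and on the FPKM scale only Cnn1 and Smtn of the members were separate. The promoter sequences of these 4 members are shown for that reason. RefSeq sequences on GRCm38.p6, from 250 bases before to 50 after a transcription start, were matched by symbol for 6 of the 10 members (Cnn1, Smtn, Lmod1, Mylk, Rgs5 and Cspg4). The 250 bases before the start are printed 5′ to 3′ on the strand of the gene, with capitals marking CATTCC, the core that TEAD factors bind. Rgs5 is read from chr1:169655251-169655500 on the plus strand, Cnn1 from chr9:22099003-22099252 on the plus strand, Mylk from chr16:34784700-34784949 on the plus strand and Smtn from chr11:3539293-3539542 on the minus strand. The Mylk and Smtn windows lie inside the annotated genes, ahead of a start within each, and the Cnn1 window ends inside its gene.
Rgs5: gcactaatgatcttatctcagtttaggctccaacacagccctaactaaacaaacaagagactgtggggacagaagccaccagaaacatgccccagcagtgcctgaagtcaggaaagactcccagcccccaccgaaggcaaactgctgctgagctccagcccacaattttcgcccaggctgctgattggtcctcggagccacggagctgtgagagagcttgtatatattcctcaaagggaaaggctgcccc
Cnn1: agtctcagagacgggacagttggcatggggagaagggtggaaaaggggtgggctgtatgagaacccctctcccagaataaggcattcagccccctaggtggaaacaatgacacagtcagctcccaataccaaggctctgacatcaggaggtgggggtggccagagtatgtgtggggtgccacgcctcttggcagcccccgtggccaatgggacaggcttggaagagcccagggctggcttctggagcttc
Mylk: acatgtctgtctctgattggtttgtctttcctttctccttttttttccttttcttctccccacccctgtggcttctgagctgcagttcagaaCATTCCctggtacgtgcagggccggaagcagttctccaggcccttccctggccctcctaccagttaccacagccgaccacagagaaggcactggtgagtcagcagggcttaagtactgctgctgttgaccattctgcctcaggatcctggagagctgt
Smtn: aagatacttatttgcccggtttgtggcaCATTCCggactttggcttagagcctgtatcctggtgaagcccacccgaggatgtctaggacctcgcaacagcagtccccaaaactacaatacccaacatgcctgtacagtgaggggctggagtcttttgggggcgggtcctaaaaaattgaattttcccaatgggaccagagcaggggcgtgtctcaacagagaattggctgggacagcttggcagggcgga

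Each of 3 motifs was searched on both strands of the whole window. Only CATTCC occurred in the 6 sequences, so no match overlapped that of another motif. A CArG box, searched as the exact pattern of CC, 6 bases of A or T, and GG, was in 0 of the 6 member windows. It was in 1.63% of all 32851 promoter windows of the same length. With so low a share, 0 of 6 does not set the members apart from other genes. Variants with a mismatch and sites outside the windows were not searched. TATAAA was in 0 of 6 and in 13.6% of all windows. CATTCC, which was added to the search after the sequences had been seen, was in 3 of 6 and in 14.7% of all windows. Because CATTCC was added in that way, its count in the members is no test against that share. CATTCC lies at bases -222 to -217 from the start of Smtn and -158 to -153 from that of Mylk, and on the opposite strand at bases -130 to -125 of Lmod1. These matches describe letters in the windows, and binding was not measured.

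Deposited totals ran from 25766378 to 38363106 reads per library. The chi-square per gene between libraries of a group was at least 32.5, so no library was a repeat of another of its group. Along the leading principal component of log2 CPM (41.7% of the variance), 4 libraries lay away from the other 8: sham control 3, TAC control 1, sham dantrolene 3 and TAC dantrolene 1. With genes divided into 3 classes of equal size by summed exon length, the median difference in log2 CPM between these 4 and the other 8 was 0.44 for the shortest genes, -0.11 for the middle class and -0.43 for the longest. The markers of cardiomyocytes were abundant in every library (3152 CPM or more for Myh6, the adult cardiac myosin heavy chain). Of the skeletal muscle myosins, Myh1 reached at most 0.105 CPM and was at 0 in 7 of 12 libraries, as was Myh2, and Myh4 was at 0 in 11.

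Among the members, levels can be compared only per length. The deposited FPKM values, which scale fragments to transcript length and library size, were highest for Tagln, at 53.8 ± 15.6 (mean ± SD over all 12 libraries), followed by Smtn at 22.2 ± 6.02, Rgs5 at 22.2 ± 12.9 and Pdgfrb at 9.45 ± 3.87. The remaining members lay at 3.31 ± 2.06 for Myh11, 2.71 ± 0.99 for Cnn1, 2.46 ± 1.06 for Cspg4, 2.12 ± 0.79 for Myocd, 1.64 ± 0.89 for Mylk and 1.24 ± 0.61 for Lmod1. Tagln exceeded Smtn, and Pdgfrb exceeded Myh11, in 12 of 12 libraries. From Myh11 down to Lmod1, neighbours in this order differed by less than their spread. Reads per library ranged from 71 for Lmod1 in TAC dantrolene 1 to 9818 for Rgs5 in TAC control 3.

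**Figure D1:**
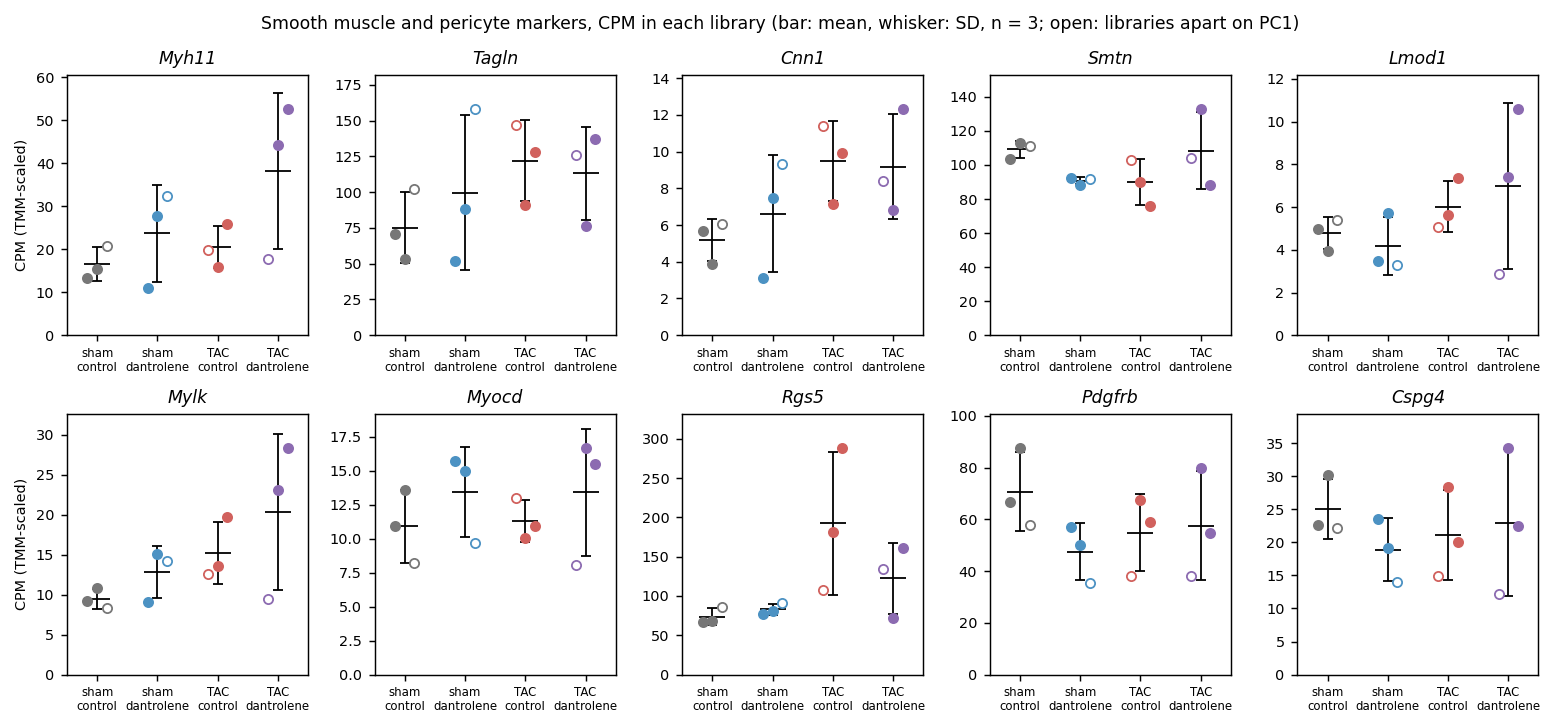
Level of each member in every library, in CPM on a linear axis from 0, by group; points are mice, the bar is the mean, the whisker the SD (n = 3), and open points are the 4 libraries that lie apart. Rgs5 stands at 107 to 289 CPM in TAC control and at 67.2 to 86.4 CPM in sham control, while most other members overlap between groups.

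Rgs5 encodes a regulator of G protein signalling that speeds the shut-off of Gq and Gi proteins and is a classic transcript of pericytes (ENSMUSG00000026678, chromosome 1, 169655501 to 169695813 on GRCm38, plus strand). It stood at 67.2, 67.9 and 86.4 CPM in sham control 1 to 3 and at 77.0, 81.0 and 90.8 CPM in sham dantrolene 1 to 3. In TAC control 1 to 3 it stood at 107, 182 and 289 CPM, and in TAC dantrolene 1 to 3 at 134, 72.1 and 161 CPM. In the same order of groups, mitochondrially encoded genes took 7.10 to 9.33%, 7.54 to 13.6%, 10.5 to 22.4% and 1.71 to 16.8% of counts. TAC control 1 to 3 held 10.5, 15.6 and 22.4%, and TAC dantrolene 1 to 3 held 8.02, 1.71 and 16.8%, the same order of libraries within each TAC group as for Rgs5. The part of that share in the Rgs5 difference was not tested. With those genes left out of the counts, edgeR gave Rgs5 a log2 difference of 1.36 between TAC control and sham control. Leaving genes out mainly changes the scaling of the libraries, so that fit cannot show what part the share has. The 6 sham libraries lay close together, every TAC control library was above all of them, and TAC dantrolene 2 was the only TAC library within the sham range. The mean was 2.61-fold higher in TAC control (193 ± 91.1 CPM, SD, n = 3) than in sham control (73.9 ± 10.9 CPM). By the quasi-likelihood test of edgeR the log2 difference was 1.38 ± 0.37 (SE), with adjusted p = 0.458 over all genes, so it did not pass.

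Without the 4 libraries apart, which leaves 2 mice per group, the Rgs5 difference was 1.77 and passed the edgeR test (adjusted p = 0.0303). In that fit 484 of 15069 genes (3.21%) were called, and Rgs5 was 1 of 10 members. Over its other alternatives and the fits leaving out 1 library at a time, Rgs5 did not pass. Its log2 difference was lowest, 0.97, without TAC control 3 and highest, 1.67, without TAC control 1. The DESeq2 Wald test gave 1.39 with adjusted p = 0.0836. On the FPKM scale TAC control 1 stood at 14.5, within the sham control range of 13.9 to 16.1, and TAC control 2 and 3 at 34.1 and 56.25, so the groups overlapped. FPKM carries no TMM scaling, and the median gene differed by -0.17 between these groups on log2(FPKM + 0.1) and by 0.10 in the count fit. Relative to those medians, Rgs5 differed by 1.18 on the FPKM scale, where its own difference was 1.01 (limma adjusted p = 0.637).

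Under TAC the Rgs5 mean was lower with dantrolene, but only TAC dantrolene 2 (72.1 CPM) lay below the TAC control range of 107 to 289 CPM. That library also had the lowest mitochondrial share of the 12 (1.71%). The TAC dantrolene mean was 122 ± 45.6 CPM against 193 ± 91.1 CPM in TAC control, the groups overlapped, and the edgeR log2 difference was -0.65 ± 0.37 (adjusted p = 1.00). It was -0.24 without TAC control 3 and -0.94 without TAC control 1. In sham mice the drug difference was 0.17 ± 0.37. The interaction, which asks whether the drug difference depended on the operation, was -0.82 ± 0.52 for Rgs5 (edgeR, adjusted p = 1.00). Averaged over both drug arms, all TAC against all sham gave 0.97 ± 0.26 (adjusted p = 0.560), with 5 of 6 TAC libraries above the highest sham library.

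Pdgfrb, the PDGF receptor beta through which pericytes are recruited (ENSMUSG00000024620, chromosome 18, 61045150 to 61085061, plus strand), had a different order of groups. It stood at 66.7, 87.6 and 57.7 CPM in sham control 1 to 3, at 57.0, 50.1 and 35.5 in sham dantrolene, at 38.3, 67.4 and 59.0 in TAC control and at 38.1, 79.8 and 54.8 in TAC dantrolene. Every sham dantrolene library was below every sham control library, by a narrow margin at 57.0 against 57.7 CPM, while the TAC groups overlapped both. Of all genes, 4.38% were lower without overlap there in CPM. In FPKM the sham groups overlapped, with sham dantrolene 1 at 9.80 and sham control 3 at 8.92. The edgeR log2 difference was -0.57 ± 0.33 for the drug in sham mice (adjusted p = 1.00), 0.07 ± 0.33 for the drug under TAC and -0.36 ± 0.33 for TAC control against sham control.

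Cspg4 encodes the NG2 proteoglycan of the pericyte surface (chromosome 9, 56865033 to 56899870, plus strand). It stood at 22.6, 30.2 and 22.1 CPM in sham control, 23.5, 19.2 and 14.01 in sham dantrolene, 14.9, 28.4 and 20.1 in TAC control and 12.1, 34.3 and 22.5 in TAC dantrolene. No pair of groups was separate, and its edgeR differences ran from -0.40 ± 0.37 in sham mice given the drug to 0.28 ± 0.37 for TAC dantrolene against sham dantrolene. Pdgfrb and Cspg4 had the same lowest libraries within each group: mouse 3 in both sham groups and mouse 1 in both TAC groups, the 4 libraries apart. As log2 CPM, the 4 libraries apart were lower than the other 8 by -0.63 for Pdgfrb and -0.68 for Cspg4, the 2 lowest such values among the members. For the drug in sham mice, edgeR gave Pdgfrb -0.51 and Cspg4 -0.29 without those libraries, and -0.59 and -0.44 with a term for them (adjusted p = 1.00 in each).

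Myh11 encodes smooth muscle myosin heavy chain, the motor protein and most specific marker of differentiated smooth muscle (ENSMUSG00000018830, chromosome 16, 14194535 to 14291372, minus strand). It stood at 13.4, 15.4 and 20.9 CPM in sham control, 11.03, 27.6 and 32.3 in sham dantrolene, 19.9, 15.9 and 25.7 in TAC control and 17.7, 44.1 and 52.7 in TAC dantrolene. TAC dantrolene 2 and 3 were the highest of the 12 libraries, and TAC dantrolene 1 lay within the range of TAC control. The means were 38.2 ± 18.2 CPM in TAC dantrolene and 20.5 ± 4.95 CPM in TAC control (SD, n = 3), a 1.86-fold difference. The edgeR log2 difference of 0.90 ± 0.44 had adjusted p = 1.00, and it was 0.60 without TAC dantrolene 3 and 1.22 without TAC dantrolene 1. Over both operations, all dantrolene against all control differed by 0.71 ± 0.31 (adjusted p = 1.00), where 1.04% of all genes had an unadjusted p under 0.05. Without the 4 libraries apart, the difference under TAC was 1.23 (adjusted p = 0.0959).

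Mylk, which encodes myosin light chain kinase (chromosome 16, 34745210 to 35002420, plus strand), had a similar profile. Its values were 9.17, 10.8 and 8.31 CPM in sham control, 9.08, 15.1 and 14.2 in sham dantrolene, 12.5, 13.5 and 19.7 in TAC control and 9.47, 23.1 and 28.4 in TAC dantrolene. In CPM all TAC control libraries were above all sham control libraries, as was so for 7.54% of all genes, and TAC dantrolene 1 lay among the sham values. In FPKM TAC control 1 stood at 0.98, within the sham control range of 0.90 to 1.39. The edgeR log2 difference of TAC control from sham control was 0.69 ± 0.38 (adjusted p = 0.669), and that of all TAC from all sham 0.68 ± 0.27 (adjusted p = 0.681). Lmod1, leiomodin 1, nucleates actin filaments in smooth muscle (chromosome 1, 135324807 to 135368065, plus strand). It was the scarcest member, at 3.95 to 5.40 CPM in sham control, 3.31 to 5.72 in sham dantrolene, 5.06 to 7.35 in TAC control and 2.87, 7.43 and 10.6 in TAC dantrolene 1 to 3. All its groups overlapped, and TAC dantrolene held both its lowest and its highest library. Its edgeR log2 difference between TAC dantrolene and TAC control was 0.22 ± 0.44 (adjusted p = 1.00), and it was -0.21 when 1 library, TAC dantrolene 3, was left out. Genes on the opposite strand overlap Mylk, Lmod1, Tagln and Smtn. The strand setting of the counting is not given in the sources used here, so reads of such partners may be among theirs.

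Cnn1 encodes calponin 1, which binds actin and restrains the myosin ATPase (ENSMUSG00000001349, chromosome 9, 22099216 to 22109630, plus strand). It stood at 5.65, 3.88 and 6.05 CPM in sham control, 3.09, 7.47 and 9.30 in sham dantrolene, 11.4, 7.14 and 9.90 in TAC control and 8.38, 6.82 and 12.3 in TAC dantrolene. The TAC control libraries were above the sham control libraries on both the CPM and the FPKM scale, as was so for 7.54% and 2.71% of all genes. The means differed 1.83-fold, and the edgeR log2 difference was 0.87 ± 0.41 (adjusted p = 0.638). For all TAC against all sham it was 0.67 ± 0.29 (adjusted p = 0.715), and the ranges overlapped.

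Tagln encodes transgelin, an actin-binding protein of smooth muscle (chromosome 9, 45929619 to 45936058, minus strand, overlapped by Pcsk7 and Gm48529 on the other strand). It stood at 70.7, 52.9 and 102 CPM in sham control, 52.1, 88.5 and 158 in sham dantrolene, 147, 91.2 and 128 in TAC control and 126, 76.2 and 137 in TAC dantrolene. The 2 highest libraries, sham dantrolene 3 and TAC control 1, were both among the libraries apart, and no pair of groups was separate. As log2 CPM, Tagln was higher by 0.68 and Cnn1 by 0.40 in the 4 libraries apart than in the other 8. Tagln, at 1988 bases, and Cnn1, at 2736, have the shortest summed exons of the 10 members. The edgeR log2 difference of Tagln between TAC control and sham control was 0.70 ± 0.41 (adjusted p = 0.680). With the drug under TAC, its difference of -0.11 ± 0.41 and that of Cnn1, -0.05 ± 0.40, changed sign on the FPKM scale.

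**Figure D2:**
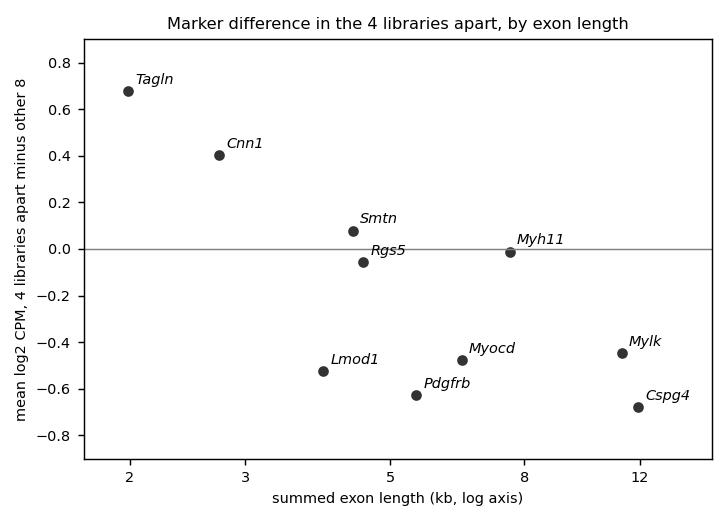
Mean log2 CPM of the 4 libraries apart minus that of the other 8 (vertical axis) against summed exon length in kilobases (log axis), 1 point per member. Tagln and Cnn1, the shortest, lie above 0 at 0.68 and 0.40, and Cspg4, the longest, lies lowest at -0.68. The members between are not in order of length. Lmod1 (3948 bases) lies at -0.52, Smtn (4380) at 0.08, Rgs5 (4546) at -0.05 and Pdgfrb (5478) at -0.63. Myocd (6424) lies at -0.48, Myh11 (7599) at -0.01 and Mylk (11263) at -0.45.

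Smtn encodes smoothelin, a cytoskeletal protein of contractile smooth muscle (ENSMUSG00000020439, chromosome 11, 3517523 to 3540612, minus strand, with the genes Gm11946 and Gm11947 on the other strand). It was the steadiest member, with a 1.75-fold range over the 12 libraries. It stood at 103, 113 and 111 CPM in sham control, 92.2, 88.4 and 91.6 in sham dantrolene, 103, 90.1 and 76.0 in TAC control and 104, 133 and 88.3 in TAC dantrolene. The libraries of sham dantrolene and of TAC control were all below those of sham control, on the CPM and on the FPKM scale. The margin was small for TAC control 1 (103.0 against 103.3 CPM). Of all genes, 9.82% in CPM and 18.3% in FPKM were lower without overlap in TAC control than in sham control. For sham dantrolene the shares were 4.38% and 6.09%. The edgeR log2 differences from sham control were -0.27 ± 0.23 for sham dantrolene and -0.28 ± 0.23 for TAC control (adjusted p = 1.00 and 0.775). The interaction was 0.54 ± 0.33 (adjusted p = 1.00).

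Myocd, the SRF coactivator that switches on the smooth muscle programme (chromosome 11, 65176561 to 65269989, minus strand), varied little with group. It stood at 10.97, 13.6 and 8.20 CPM in sham control, 15.7, 14.96 and 9.67 in sham dantrolene, 13.01, 10.04 and 10.9 in TAC control and 8.06, 16.7 and 15.47 in TAC dantrolene. All groups overlapped. The largest of its edgeR differences among pairs of groups was 0.30 ± 0.33 for the drug in sham mice (adjusted p = 1.00). Its difference of 0.05 ± 0.33 between TAC control and sham control became -0.25 without the 4 libraries apart and -0.18 on log2(FPKM + 0.1), so it has no stable sign.

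**Figure D3:**
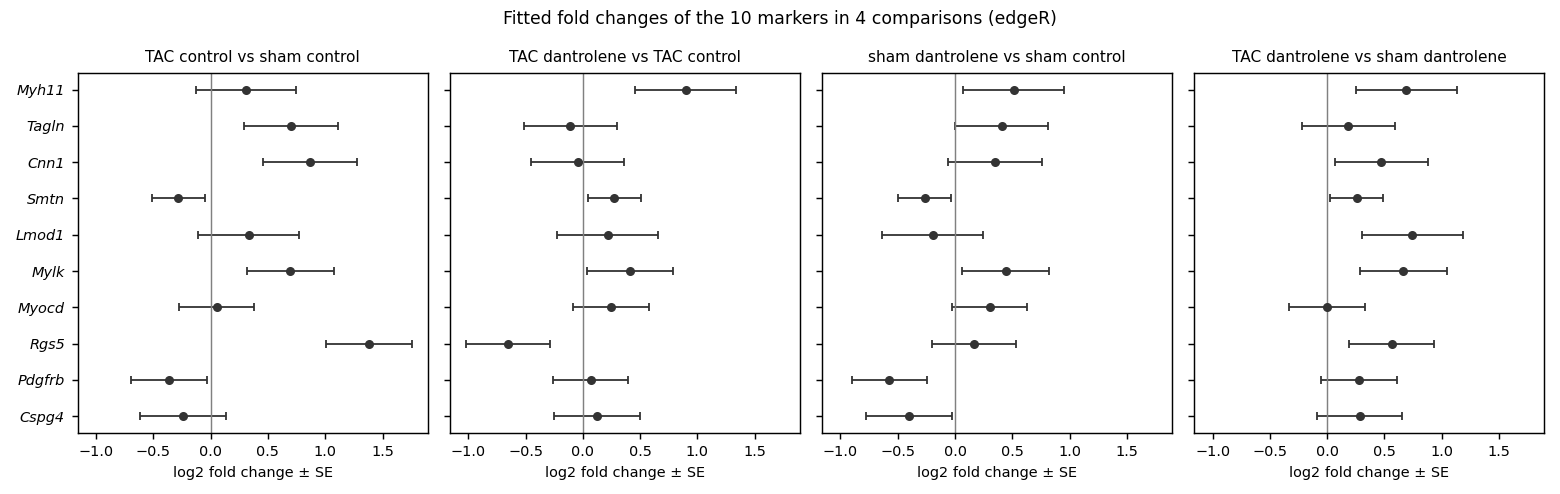
Fitted log2 difference of each member with its standard error (edgeR, 12 libraries) in 4 comparisons, on 1 common axis. Rgs5 is at 1.38 in TAC control against sham control and at -0.65 in TAC dantrolene against TAC control, and in no panel did a member pass the test.

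Across all genes, the edgeR test called 0 of 14965 genes in any of the 7 comparisons (0% of genes, and 0 of 10 members). In TAC control against sham control, 1186 genes (7.93%) had an unadjusted p under 0.05, among them 1 member, Rgs5. DESeq2 called 71 genes and 0 members there. In TAC dantrolene against TAC control 486 genes (3.25%) and 0 members did, and DESeq2 called 11 genes and 0 members. The other counts were 107 (0.715%) in sham dantrolene against sham control, 256 (1.71%) in TAC dantrolene against sham dantrolene and 422 (2.82%) for the interaction, with 0 members in each. In all TAC against all sham there were 1014 genes (6.78%) and 3 members, Rgs5, Mylk and Cnn1. In all dantrolene against all control there were 156 (1.04%) and 1 member, Myh11. DESeq2 called 0, 0, 1, 47 and 1 genes in these 5 comparisons in the same order, and 0 members.

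Fitted differences were above 0 for 7 of 10 members in TAC control against sham control, where 57.2% of all genes were, with a median of 0.32 over the members and 0.10 over all genes. For TAC dantrolene against TAC control the count was 7 of 10 (51.8% of all genes), with medians of 0.17 and 0.02. For sham dantrolene against sham control it was 6 of 10 (52.5%), with medians of 0.23 and 0.02, and for TAC dantrolene against sham dantrolene 9 of 10 (59.9%), with medians of 0.38 and 0.08. For the interaction it was 5 of 10 (49.5%), with medians of 0.18 and -0.01, for all TAC against all sham 8 of 10 (56.8%), with medians of 0.47 and 0.06, and for all dantrolene against all control 7 of 10 (56.7%), with medians of 0.08 and 0.03. These comparisons share libraries. In CPM, groups did not overlap for 3 members in the higher direction (Cnn1, Mylk, Rgs5; 7.54% of all genes) and 1 in the lower direction (Smtn; 9.82%) in TAC control against sham control. In FPKM the counts were 1 (Cnn1) and 1 (Smtn), with 2.71% of genes higher and 18.3% lower. In sham dantrolene against sham control 2 members, Pdgfrb and Smtn, were lower without overlap in CPM (4.38% of all genes). In FPKM 1 was lower, Smtn (6.09%), and 0 were higher on either scale (2.99% in CPM and 1.74% in FPKM). With the drug under TAC, 0 members were separate from TAC control on either scale. Of all genes, 2.68% were higher and 2.08% lower in CPM, and 2.34% higher and 1.34% lower in FPKM. In TAC dantrolene against sham dantrolene the count was 0 in CPM (2.9% of genes higher and 1.96% lower) and 1 in FPKM, Rgs5, in the higher direction (0.982%).

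Without the 4 libraries apart, 6 of 10 members had an unadjusted p under 0.05 in all TAC against all sham, where 23.4% of all genes did (edgeR), and 0 passed after adjustment. The values there were 1.16 for Rgs5 (adjusted p = 0.0583), 0.88 for Mylk (adjusted p = 0.0712) and 0.90 for Myh11 (adjusted p = 0.10). In TAC control against sham control 3 members had an unadjusted p under 0.05 in these 8 libraries (24.7% of all genes), and in TAC dantrolene against TAC control 3 (22.4%), where 3.17% of genes and 0 members passed after adjustment.

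**Figure D4:**
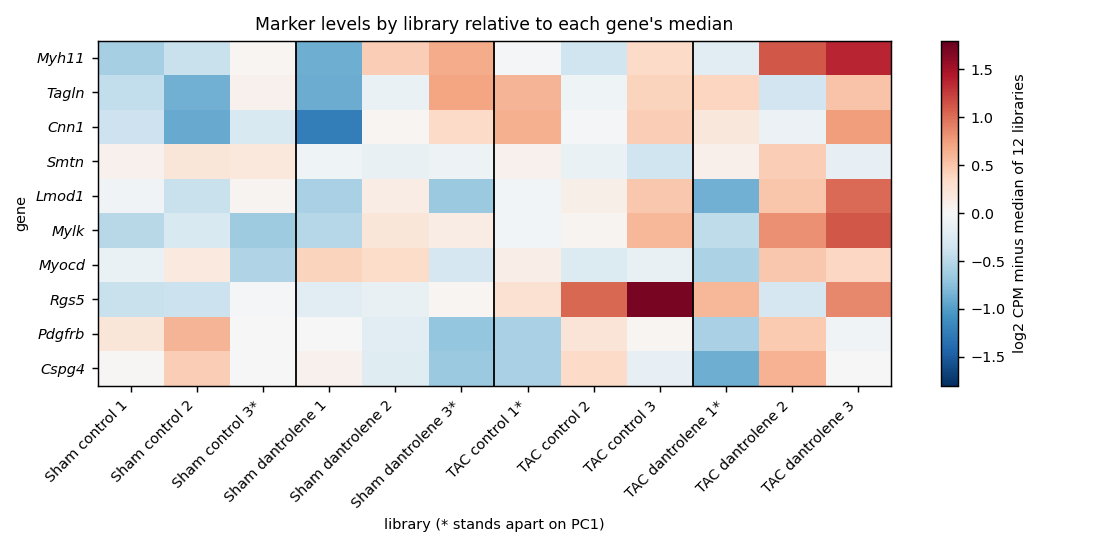
Log2 CPM of each member in each library minus that member's median over the 12 libraries (colour scale in log2 units); vertical lines part the groups, and asterisks mark the libraries apart. The contractile genes Myh11, Lmod1 and Mylk are highest in TAC dantrolene 2 and 3, and Rgs5 in TAC control 2 and 3.

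The members did not vary as 1 block. When each was standardised over the 12 libraries and the 10 were averaged, the mean score was highest in TAC dantrolene 3 (0.93) and TAC dantrolene 2 (0.84) and lowest in sham dantrolene 1 (-0.67) and TAC dantrolene 1 (-0.55). Mylk, Lmod1 and Myh11 followed that mean most closely, with Pearson r of 0.93, 0.90 and 0.82 over 12 libraries, and Smtn (0.01), Tagln (0.27) and Pdgfrb (0.31) least. Each member is part of the mean it is set against, and libraries share their depth and composition across genes, so these r are descriptions. Among all other genes tested, the most alike to the mean over the 12 libraries were Usp7 (r = 0.93), a deubiquitinase, Fam21 (0.89), Spty2d1 (0.89), Dcun1d4 (0.89), Ccnd2 (0.89), which encodes cyclin D2, and Zrsr2 (0.88). Over the 8 libraries not apart, r was 0.95 for Usp7 and 0.88 to 0.96 for the others.

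Further genes of the contractile apparatus and cytoskeleton of smooth muscle, 20 in number, had a higher fitted level in TAC control than in sham control in 15 cases, with a median of 0.63 against 0.10 over all genes and 0 called by edgeR. At an unadjusted p under 0.05 were 3, all higher (4.13% of all genes were). Cald1, caldesmon, which inhibits actomyosin, was at 12.4 to 22.6 CPM in TAC control and 5.40 to 8.92 CPM in sham control (means 16.4 and 6.94, log2 difference 1.24 ± 0.31, adjusted p = 0.441). Its 6 TAC libraries were all above its 6 sham libraries, as was so for 0.307% of all genes. Kcnmb1, the beta subunit of the large-conductance potassium channel, averaged 2.68 ± 0.95 against 1.30 ± 0.11 CPM (1.04 ± 0.41, adjusted p = 0.563), and Itga1, integrin alpha 1, 6.48 ± 1.27 against 3.88 ± 0.45 CPM (0.74 ± 0.31, adjusted p = 0.588). For the drug under TAC, 9 of the 20 were above 0 and 0 had an unadjusted p under 0.05, with Itga1 at -0.57 ± 0.31, Vcl, vinculin, at 0.76 ± 0.46, and Synpo2, an actin-bundling protein, at 0.62 ± 0.43.

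Other pericyte genes numbered 16. In TAC control against sham control 9 were above 0 (median 0.09), and 0 had an unadjusted p under 0.05. Higd1b differed by 0.74 ± 0.48 and Rgs4, a relative of Rgs5, by 0.59 ± 0.42. For the drug under TAC, 5 of 16 were above 0 (median -0.16), and 1, Cd248 or endosialin, had an unadjusted p under 0.05 in the lower direction (1.47% of all genes), with 14.6 ± 1.97 CPM under the drug and 25.8 ± 11.2 CPM without it (-0.82 ± 0.33, adjusted p = 1.00). Rgs4 differed by -0.85 ± 0.42 and Abcc9, a sulphonylurea receptor subunit of potassium channels, by 0.60 ± 0.41.

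From a mixed list of regulators around myocardin and SRF, 8 genes were tested. The list holds coactivators of SRF as well as Elk1, a competitor of myocardin, so its counts give no direction of the myocardin programme. In TAC control against sham control 6 were below 0 (median -0.39), and 1, Mkl2, a myocardin-related coactivator of SRF, had an unadjusted p under 0.05 (3.8% of all genes were lower at that level). Mkl2 averaged 11.3 ± 2.17 against 18.8 ± 6.03 CPM (-0.74 ± 0.33, adjusted p = 0.617), and its relative Mkl1 6.96 ± 0.47 against 10.1 ± 1.36 CPM (-0.54 ± 0.25, adjusted p = 0.630). Elk1, which competes with myocardin for SRF, differed by -0.70 ± 0.48. With the drug under TAC 7 of 8 were above 0 (median 0.30), with Gata6 at 0.92 ± 0.49, Srf at 0.49 ± 0.38 and Mkl1 at 0.31 ± 0.25, and 0 had an unadjusted p under 0.05.

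Of 5 genes of PDGF ligands and receptor alpha, 3 were above 0 in TAC control against sham control and 4 for the drug under TAC. Pdgfd, a ligand of PDGF receptor beta, was the 1 gene of the 5 with an unadjusted p under 0.05 in the former, where 4.13% of all genes were higher at that level. It ranged from 1.82 to 7.61 CPM in TAC control and from 1.59 to 1.78 CPM in sham control (1.49 ± 0.50, adjusted p = 0.515). Pdgfra differed by 0.32 ± 0.45, with a negative value on log2(FPKM + 0.1), and Pdgfa by -0.27 ± 0.39. For the drug under TAC, Pdgfc differed by 0.64 ± 0.45, Pdgfa by 0.43 ± 0.39 and Pdgfd by -0.40 ± 0.49. Of 10 Notch genes of mural cells, 7 were below 0 in TAC control against sham control (median -0.11), with Hes1 at -0.72 ± 0.48, Heyl at -0.48 ± 0.32 and the ligand Dll4 at -0.42 ± 0.29, and 0 had an unadjusted p under 0.05. For the drug under TAC 7 were above 0, with Rbpj, the DNA-binding partner of Notch, at 0.52 ± 0.30, Dll4 at -0.48 ± 0.29 and Heyl at 0.22 ± 0.32.

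Of 13 genes that govern calcium and relaxation in smooth muscle, 8 were above 0 in TAC control against sham control (median 0.20), and 2 had an unadjusted p under 0.05, both higher, as 4.13% of all genes were. Ednrb, the endothelin receptor B, averaged 7.10 ± 3.12 against 3.24 ± 1.03 CPM (1.13 ± 0.41, adjusted p = 0.537). Rock1, a kinase that sensitises the contractile apparatus to calcium, averaged 5.15 ± 3.28 against 1.97 ± 0.17 CPM (1.39 ± 0.53, adjusted p = 0.558), and Rock2 differed by 0.70 ± 0.42. Between TAC dantrolene and TAC control 7 of 13 were above 0 (median 0.22) and 0 had an unadjusted p under 0.05, with the adrenergic receptor Adra1d at 0.81 ± 0.57, the endothelin receptor Ednra at 0.54 ± 0.48 and Rock1 at -0.55 ± 0.52. By edgeR none of the genes of these 6 lists passed over all genes in either comparison.

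**Figure D5:**
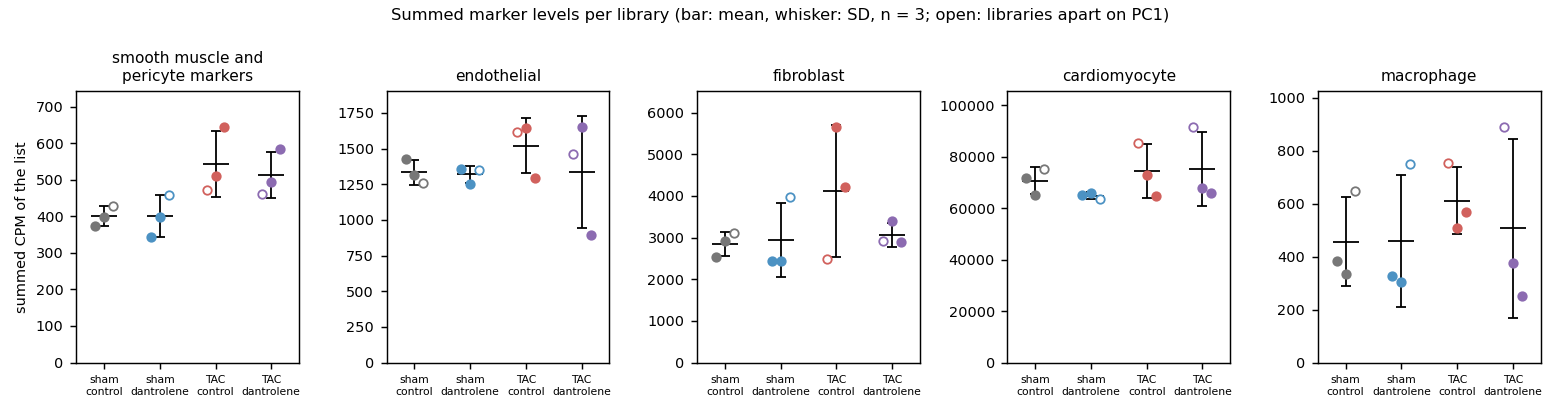
Summed CPM of the 10 members and of the endothelial, fibroblast, cardiomyocyte and macrophage marker lists in each library, on linear axes from 0; bars are means, whiskers SD (n = 3), open points the libraries apart. The member sum reaches 473 to 645 CPM in TAC control and 375 to 428 CPM in sham control, and TAC dantrolene 3 has the lowest endothelial sum at 898 CPM.

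Markers of other cells of the heart were summed beside the members, and edgeR called 0 of them in TAC control against sham control. The summed level of the 10 members was 375 to 428 CPM in sham control, 344 to 459 in sham dantrolene, 473 to 645 in TAC control and 461 to 583 in TAC dantrolene, and Rgs5 alone made up 107 to 289 CPM of the TAC control sums. In the same order of groups, 10 fibroblast markers summed to 2528 to 3102, 2438 to 3974, 2493 to 5661 and 2885 to 3406 CPM, and all 10 were above 0 in TAC control against sham control (median 0.77). The 10 endothelial markers summed to 1257 to 1428, 1249 to 1359, 1296 to 1644 and 898 to 1653 CPM, with 8 of 10 above 0 (median 0.25). The 10 cardiomyocyte markers, with 5 of 10 above 0, had a median of 0.01, and 8 macrophage markers, with 7 of 8 above 0, summed to 335 to 649, 303 to 748, 510 to 754 and 252 to 890 CPM. With the drug under TAC, 9 of 10 fibroblast, 8 of 10 endothelial and 6 of 8 macrophage markers were below 0, with medians of -0.70, -0.22 and -0.31.

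The 8 epicardial and mesothelial markers, of which 7 were tested, summed to 9.19 to 11.5 CPM in sham control, 10.9 to 15.9 in sham dantrolene, 12.6 to 41.0 in TAC control and 9.36 to 36.3 in TAC dantrolene. Of the 7, 6 were above 0 in TAC control against sham control (median 2.84), and 4 had an unadjusted p under 0.05 in the higher direction, as 4.13% of all genes did. Upk1b was at 0 in 2 libraries and Lrrn4 in 5. The 8 Schwann and glial markers summed to 22.1 to 49.2 CPM over all libraries. Skeletal muscle and atrial genes summed to 198 to 482 CPM in sham control, 270 to 356 in sham dantrolene, 539 to 2019 in TAC control and 114 to 367 in TAC dantrolene. Nppa, a natriuretic peptide that the loaded ventricle also expresses, reached 2015 CPM, the atrial light chain Myl4 9.80 CPM and Myl7 1.90 CPM. These were the 3 tested genes of the list, all above 0 in TAC control against sham control (median 2.30). Of them 2, Nppa and Myl7, were higher without overlap in CPM, as 7.54% of all genes were. Myl7 was near the floor, with a median of 0.11 CPM over all libraries, at most 47 reads and 0 in 1 library. The part of these cell types in the member differences was not tested.

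Relative to endothelial transcripts, 1 library stood out. The mean log2 CPM of the members minus that of the 10 endothelial markers was -0.93 in TAC dantrolene 3 and between -2.47 and -1.796 in the other 11 libraries. That library had both the highest member mean (5.27) and the lowest endothelial mean (6.20) of the 12. It also held the highest Myh11, Cnn1, Lmod1 and Mylk values, so the TAC dantrolene means of these 4 genes rest in part on it.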

How the data were processed

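Polyadenylated RNA of 12 left ventricles was sequenced as directional paired-end libraries of 150 nt, per the labels' protocols. For the upstream steps, bcl2fastq, TopHat2, edgeR and GRCm38 are listed without versions in the submitters' processing notes. How reads were assigned to genes, with which annotation and strand setting, is not given in the sources used here. Read counts per gene were deposited as whole numbers, not normalized, together with FPKM values, which the authors scaled to length and library size.

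From the deposited counts, edgeR 4.0.16 (R 4.3.3) was run on all 12 libraries with 4 group means. Low genes were left out with filterByExpr at a minimum count of 10 and a minimum total of 15, a loss of 0.0418% of counts. TMM scaling and robust quasi-likelihood tests followed, with Benjamini-Hochberg adjustment over 14965 genes, a threshold of 0.05 and 8 residual degrees of freedom. All p-values in the text come from these fits across all genes unless DESeq2 1.42.0 or limma 3.58.1 is named. Totals of 25766378 to 38363106 reads and a common biological coefficient of variation of 0.443 set the precision. Each library is labelled a biological replicate from its own mouse. Tests were checked on simulated data.

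The 10 members, the pathway lists and the cell type marker lists were chosen with earlier results of these data known. Beside the members, the text names per pathway list up to 3 tested genes with the smallest p in TAC control against sham control and up to 3 in TAC dantrolene against TAC control, and the 6 other genes most correlated with the members' mean. A gene that this rule names among the other pericyte genes is not reported here. Gene positions and exon lengths are from GENCODE vM21 on GRCm38, matched by gene ID.

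Within each operation, same-numbered control and dantrolene mice correlated at 0.465, 0.366 and 0.672 in sham and 0.556, 0.300 and 0.613 under TAC (deviations from group means). Differently numbered pairs ran from -0.616 to 0.375 in sham and from -0.561 to 0.221 under TAC. The libraries apart are number 3 in both sham groups and number 1 in both TAC groups, so these values cannot show a pairing by design. Across operations the same-numbered correlations were -0.294, 0.283 and -0.304 in control mice and -0.377, 0.270 and -0.313 in dantrolene mice. They show no pairing of a surgery comparison either. Alternatives were another test, scaling, filter, unit and library set, a replicate block, and leaving out each library.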

Additional observations from a re-analysis of the deposited data

How the results depend on the processing

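Of 2302 values of members and named list genes under alternatives, 2195 kept direction and side of the threshold, 103 changed sign, 4 passed it and 0 lost it. None could lose it, because the main fit called 0 genes in each comparison. Some of these fits leave out a library of neither group compared, so the share that held is no measure of stability. The 4 values that passed were Rgs5, Cald1 and Elk1 in TAC control against sham control and Synpo2 in TAC dantrolene against TAC control, all without the 4 libraries apart. The causes were not tested.

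Genes past the threshold, 0 with edgeR in each comparison, were as follows for TAC control against sham control: 71 with DESeq2, 3 with no filter, 484 without the 4 libraries apart, 21 with a term for them, 1 with only the 2 groups compared and 0 to 15 leaving out 1 library. For TAC dantrolene against TAC control they were 11 with DESeq2, 1 with no filter, 478 without the 4 and 0 to 1 leaving out 1 library. For the interaction they were 1 with DESeq2 and 7 without the 4. For all TAC against all sham they were 47, 4 with no filter, 67 without the 4, 6 with the term and 0 to 1 leaving out 1 library, and for all dantrolene against all control 1 with DESeq2. Without the 4, members above 0 in the interaction numbered 8.

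Signs turned for small log2 differences. Without the 4 libraries apart these were Myocd -0.25 in TAC control against sham control, Cnn1 0.18 in TAC dantrolene against TAC control, Lmod1 0.059 in sham dantrolene against sham control, Myocd 0.033 in TAC dantrolene against sham dantrolene, Cnn1 0.018, Mylk 0.34 and Myocd 0.28 in the interaction, and Myocd -0.11 in all TAC against all sham. On log2(FPKM + 0.1) and log2(FPKM + 1) they were Myocd -0.18 and -0.13 in TAC control against sham control (Pdgfra -0.072 with the former), Tagln 0.0072 and 0.0075 and Cnn1 0.069 and 0.065 in TAC dantrolene against TAC control, Mylk 0.13 and 0.16 and Myocd 0.13 and 0.12 in the interaction, and Myocd -0.12 and -0.072 and Cspg4 -0.17 and -0.097 in all TAC against all sham. In that last comparison Cspg4 was -0.00017 with DESeq2, -0.0045 with no filter, -0.025 without mitochondrial genes and -0.028 with the term, and Myocd -0.0050 with no filter and -0.023 without mitochondrial genes. In all dantrolene against all control, Smtn and Lmod1 were -0.0079 and -0.0090 with DESeq2, -0.0075 and -0.010 with its size factors, and -0.016 and -0.018 without mitochondrial genes, and Lmod1 was -0.052 with the term and -0.055 on log2(FPKM + 0.1).

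With the replicate block, edgeR called 0 genes in each comparison. Genes at an unadjusted p under 0.05 in TAC dantrolene against TAC control then numbered 1826 instead of 486, with adjusted p of 0.392 for Myh11 and 0.407 for Rgs5. Under the block Cspg4 was -0.036 in all TAC against all sham, and Smtn -0.00043 and Lmod1 -0.077 in all dantrolene against all control. Members at an unadjusted p under 0.05 numbered 2 instead of 0 in TAC dantrolene against TAC control. In sham dantrolene against sham control they numbered 1 instead of 0, where all genes at that level numbered 610 instead of 107. For the interaction they numbered 2 instead of 0 (1741 genes instead of 422), and in TAC dantrolene against sham dantrolene 1 instead of 0 (102 instead of 256). In all TAC against all sham they numbered 4 instead of 3 (422 instead of 1014), and in all dantrolene against all control 2 instead of 1 (629 instead of 156). TAC control against sham control kept 1 (554 instead of 1186). After adjustment the block changed no call of a member.

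Leaving out 1 library at a time turned a sign within these ranges. In TAC control against sham control, Myocd ran from -0.13 to 0.23 and Pdgfra from -0.027 to 0.70. In TAC dantrolene against TAC control, Tagln ran from -0.28 to 0.11, Cnn1 from -0.32 to 0.13, Pdgfrb from -0.24 to 0.27, Cspg4 from -0.29 to 0.40, Lmod1 from -0.21 to 0.56, Pdgfd from -0.84 to 0.12, Rock1 from -1.12 to 0.050 and Heyl from -0.21 to 0.48. In sham dantrolene against sham control, Tagln ran from -0.10 to 0.71. In TAC dantrolene against sham dantrolene, Tagln ran from -0.12 to 0.69, Myocd from -0.19 to 0.22, Pdgfrb from -0.032 to 0.46 and Cspg4 from -0.13 to 0.55. In the interaction, Mylk ran from -0.34 to 0.29, Myocd from -0.24 to 0.18 and Lmod1 from -0.019 to 0.75. In all TAC against all sham, Cspg4 ran from -0.19 to 0.15, Smtn from -0.10 to 0.052, Pdgfrb from -0.20 to 0.060 and Myocd from -0.086 to 0.13. In all dantrolene against all control, Smtn ran from -0.084 to 0.069, Lmod1 from -0.21 to 0.19, Tagln from -0.10 to 0.30, Cnn1 from -0.011 to 0.32 and Cspg4 from -0.34 to 0.0023.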
